A study of Mus musculus with 7 samples.

Results

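The 4 genes described here, A930018P22Rik, Macf1, Gpsm2 and Ip6k2, were selected on the size of the gain of histone H3 lysine 18 lactylation (H3K18La) at their promoters between postnatal day 4 (P4) and P28 in the mouse retina. All peaks assigned to these genes in the deposited signal table were taken, 33 of 108253. The gene with the most peaks was Macf1 with 22, followed by Gpsm2 and Ip6k2 with 4 each and A930018P22Rik with 3. In each gene the promoter peak with the largest gain is called the rising peak, which leaves 29 other peaks of the genes. A further 14 peaks assigned to other genes lay within 50 kb of a rising peak. The members were chosen by the P28 against P4 difference of the 4 rising peaks, so those values are given as a description and were not tested. By that difference the rising peaks of A930018P22Rik, Macf1, Gpsm2 and Ip6k2 ranked 1, 2, 3 and 5 of the 11100 peaks at promoters of protein-coding genes. Rank 4 was Guca1b, which is not among the members and gained 4.24 on the log2(RPKM + 1) scale. Just inside the selection was Ip6k2 with a gain of 4.13, and the next in rank was Plk5 with 4.08.

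The study made these libraries to map H3K18La over the genome while the retina matures after birth. CUT&Tag, in which an antibody brings an enzyme to the marked chromatin so that DNA next to it can be sequenced, was carried out on dissociated retinal cells of C57Bl/6J mice. The ages were represented by 2 (P4), 2 (P10) and 3 (P28) libraries, and no treatment or second genotype was compared. According to the labels, P28 replicate 1 was the single library of batch 2, and the others were batch 1.

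Lactylation is a modification in which a lactyl group derived from lactate is joined to a lysine, and on histone H3 it has been found at active promoters and enhancers. Mammalian genes often have several start sites, each with a promoter of its own, and an internal promoter yields a shorter transcript than the one at the 5′ end. Macf1 encodes a very large spectraplakin that links microtubules to actin filaments. Gpsm2, also known as LGN, encodes an adaptor that holds the alpha subunits of inhibitory G proteins and orients the mitotic spindle. Ip6k2 encodes a kinase that turns inositol hexakisphosphate into an inositol pyrophosphate. The product of A930018P22Rik has no role that is described here.

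The libraries held between 199970 reads in peaks (P10 replicate 1) and 8274373 (P28 replicate 2), with a median of 1 or 2 reads per peak in P4 and P10 libraries and of 6 to 33 at P28. Signal is given as RPKM, reads scaled to the length of the peak and to the library, as deposited by the authors, so levels of peaks of different width can be compared. Reads in peaks made up 16.3% and 17.6% of the normalized library size at P4, 36.1% and 52.1% at P10 and 42.4% to 57.1% at P28. Over all peaks the median P28 to P4 difference was 0.68 on the log2 scale, and -0.29 when each library was scaled to its total of reads in peaks. On the deposited scale 20488 peaks were called higher and 4553 lower at P28, whereas after that scaling 7760 were higher and 16246 lower. A call here means a Benjamini-Hochberg adjusted p under 0.01 in limma over all 108253 peaks. The study calls its replicates biological, but labels do not say whether libraries came from separate animals, so p-values measure the spread between these libraries. Of the 6 rod photoreceptor markers looked at, 4 had a promoter peak (Crx, Nrl, Gnat1 and Pde6b), with means of 0.81 to 2.44 RPKM at P4 and 15.3 to 15.6 RPKM at P28, while Sag and Cnga1 had none. At P10 the means were already 12.004 RPKM for Crx, 18.4 RPKM for Nrl, 14.9 RPKM for Gnat1 and 12.2 RPKM for Pde6b, most of the P28 level or above it. The part of rod marker promoters in the results below was not tested. Of 5 pigment epithelium markers only Best1 and Tyrp1 had one, at 0.58 and 3.06 RPKM at P28, and Rpe65, Tyr and Pmel had none. Of the muscle markers Ckm had one (0.58 RPKM at P4 and 7.49 RPKM at P28) and Acta1 and Myh4 had none, and 0 of 3 liver markers had one. The whole retina was assayed, so more cells with the mark and more mark per cell cannot be told apart.

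The start sites under the rising peaks differed in where they sat in the gene. Only the rising peak of A930018P22Rik (ENSMUSG00000032671) lay over the 5′ start of its gene, which is 1.98 kb long and on the plus strand of chromosome 2. In the GENCODE M21 annotation of the same genome build, GRCm38, the start under the rising peak of Macf1 (ENSMUSG00000028649) lay 119.7 kb downstream of the 5′ start of a gene of 334.7 kb. The corresponding start of Gpsm2 (ENSMUSG00000027883) lay 10.6 kb downstream of the 5′ start of a gene of 43.7 kb, and that of Ip6k2 (ENSMUSG00000032599) lay 12.2 kb downstream in a gene of 22.5 kb. Of the annotated transcripts, 1 of 1 in A930018P22Rik, 1 of 16 in Macf1, 1 of 4 in Gpsm2 and 5 of 12 in Ip6k2 started within the rising peak. The Macf1 transcript that the deposited annotation assigns to the peak (ENSMUST00000238731) is not in M21, where another transcript starts at the same base. The 250 bases before each of these starts are shown 5′ to 3′ on the strand of the gene, because they precede the starts that lie under the rising peaks. Capitals mark matches to GC box letters (GGGCGG, or CCGCCC on the other strand) and CCAAT box letters (CCAAT, or ATTGG on the other strand).
A930018P22Rik, chr2:104122519-104122768, plus strand: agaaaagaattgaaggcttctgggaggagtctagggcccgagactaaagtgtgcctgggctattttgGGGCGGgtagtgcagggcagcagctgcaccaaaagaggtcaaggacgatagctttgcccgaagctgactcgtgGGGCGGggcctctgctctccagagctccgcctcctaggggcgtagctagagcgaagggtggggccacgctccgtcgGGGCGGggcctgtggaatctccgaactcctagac
Macf1 internal start, chr4:123564695-123564944, minus strand: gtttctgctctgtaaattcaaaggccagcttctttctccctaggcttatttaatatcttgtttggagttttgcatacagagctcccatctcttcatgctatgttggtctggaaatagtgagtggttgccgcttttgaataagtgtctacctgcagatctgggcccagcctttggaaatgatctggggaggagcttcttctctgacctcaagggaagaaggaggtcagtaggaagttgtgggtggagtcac
Gpsm2 internal start, chr3:108711671-108711920, minus strand: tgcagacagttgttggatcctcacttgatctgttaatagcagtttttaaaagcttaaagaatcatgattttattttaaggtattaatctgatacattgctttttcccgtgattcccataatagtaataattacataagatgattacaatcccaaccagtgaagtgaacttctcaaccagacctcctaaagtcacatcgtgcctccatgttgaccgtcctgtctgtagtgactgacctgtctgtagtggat
Ip6k2 internal start, chr9:108795744-108795993, plus strand: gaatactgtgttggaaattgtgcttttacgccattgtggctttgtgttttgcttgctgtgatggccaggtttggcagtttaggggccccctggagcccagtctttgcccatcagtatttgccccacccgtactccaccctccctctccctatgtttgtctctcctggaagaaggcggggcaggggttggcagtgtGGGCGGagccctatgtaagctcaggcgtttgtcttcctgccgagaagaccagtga
The same stretch before the 5′ start of Gpsm2 and Ip6k2 is shown for comparison within the gene.
Gpsm2 5′ start, chr3:108722310-108722559, minus strand: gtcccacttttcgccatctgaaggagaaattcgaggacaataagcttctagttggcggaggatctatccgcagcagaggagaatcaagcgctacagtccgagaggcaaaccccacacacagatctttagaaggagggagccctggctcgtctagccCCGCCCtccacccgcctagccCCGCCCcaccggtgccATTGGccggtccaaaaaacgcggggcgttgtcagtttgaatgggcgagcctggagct
Ip6k2 5′ start, chr9:108783546-108783795, plus strand: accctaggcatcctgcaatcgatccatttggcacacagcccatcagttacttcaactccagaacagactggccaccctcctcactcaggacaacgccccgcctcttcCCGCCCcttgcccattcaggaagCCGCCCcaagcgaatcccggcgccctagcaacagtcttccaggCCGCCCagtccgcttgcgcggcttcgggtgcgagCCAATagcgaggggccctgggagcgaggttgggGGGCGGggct

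These bases were read from the RefSeq GRCm38.p6 genome, and none of the 6 stretches overlapped an annotated exon of its gene. For base composition, 50 bases after the start were added, which gave windows of 300 bases as in the RefSeq promoter table of 32544 windows. The window of A930018P22Rik was 63.7% G and C, above 78.9% of the RefSeq windows, and held 3 GC boxes. The internal windows of Macf1, Gpsm2 and Ip6k2 were 47.0%, 38.3% and 54.7% G and C, above 28.2%, 7.36% and 55.3% of them. Of these internal windows only that of Ip6k2 held a GC box. At the 5′ starts the windows of Gpsm2 and Ip6k2 were 60.7% and 63.7% G and C, with 2 and 4 GC boxes and 1 CCAAT box each. At its annotated 5′ start Macf1 did not share this contrast, since the window there was 40.3% G and C, less than at the internal start, and held neither box. No peak lay over that start, and the marked peaks upstream in Macf1 are given below. Among all RefSeq windows, 35.9% held a GC box and 37.4% a CCAAT box on either strand. TATAAA (in 13.6% of all windows), the homeobox letters TAATCC (7.06%) and the NRL-type letters TGCTGA (19.5%) were searched on both strands too and were not in any window named here. A match of letters is not evidence of binding, and a missing match says only that these letters are not in this window.

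Over the whole rising peaks A930018P22Rik was again the richest in G and C and Gpsm2 the poorest. The peak of A930018P22Rik was 59.2% G and C with a CpG ratio (observed over expected from base composition) of 0.65, next to medians of 59.2% and 0.67 over promoter peaks of protein-coding genes. The rising peaks of Macf1, Ip6k2 and Gpsm2 were 49.4%, 47.4% and 41.9% G and C, and 6.29%, 3.46% and 0.28% of those promoter peaks were lower. Their CpG ratios were 0.19, 0.29 and 0.37. Some Macf1 peaks upstream of its rising peak were richer in G and C. The promoter peak 97.2 kb upstream was 64.9% G and C (CpG ratio 0.79), and the peak just upstream of the gene 63.9% (0.66). The promoter peak 6.45 kb upstream was 51.3% (0.20). The rising peak of Gpsm2 was also narrow, at 676 bases, against a median of 1155 bases for these promoter peaks.

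Signal at the rising peak of A930018P22Rik (chr2:104122399-104123777) was 1.32 and 1.73 RPKM at P4, 2.62 and 5.14 RPKM at P10, and 57.5, 54.7 and 59.2 RPKM at P28. All 3 P28 libraries were far above the others, and every P10 library was above both P4 libraries. Its gain was 4.53 on the log2(RPKM + 1) scale. From 8 reads at P4 and 2003 at P28, the pooled ratio per normalized library was 37.5 (exact 95% interval 19.0 to 87.0, counting error only). Its mean at P28, 57.1 ± 2.27 RPKM (SD, n = 3), ranked 3 among the 11100 promoter peaks, whereas its mean at P10, 3.88 ± 1.79 RPKM (SD, n = 2), was above only 62.7% of them.

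The rising peak of Macf1 (chr4:123564226-123566054) had 0.50 and 0.33 RPKM at P4, 11.8 and 12.1 RPKM at P10, and 27.7, 30.5 and 36.6 RPKM at P28. The 3 ages did not overlap, and both P10 libraries were close to each other. Its gain was 4.52 on the log2 scale, and the pooled ratio was 74.4 (exact 95% interval 25.4 to 361) from 3 reads at P4 and 1489 at P28. At P10 its mean of 11.96 ± 0.16 RPKM (SD, n = 2) was above 94.1% of the promoter peaks.

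For Gpsm2, the rising peak (chr3:108711224-108711899) had 0 and 1.77 RPKM at P4, 5.34 and 6.997 RPKM at P10, and 31.0, 29.2 and 36.3 RPKM at P28. Every age lay above the one before it, with no overlap. The P4 level rested on 0 and 2 reads. The gain was 4.31 on the log2 scale, and the pooled ratio was 40.7 (exact 95% interval 11.2 to 337) from 2 reads at P4 and 543 at P28.

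At Ip6k2, no read was counted in the rising peak (chr9:108794826-108796425) in either P4 library. It had 2.26 and 1.48 RPKM at P10, from 2 and 3 reads, and 11.8, 19.3 and 19.4 RPKM at P28. P28 replicate 1, the library of batch 2, was the lowest at P28 and still above both P10 libraries. The gain was 4.13 on the log2 scale, and the P28 signal was at least 37.7-fold higher with a floor of 3 reads over both P4 libraries, or 30.6-fold at the lower limit of the exact 95% interval. The mean of 16.9 ± 4.37 RPKM at P28 (SD, n = 3) ranked 644 among the promoter peaks, the lowest level of the 4 rising peaks.

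**Figure D1:**
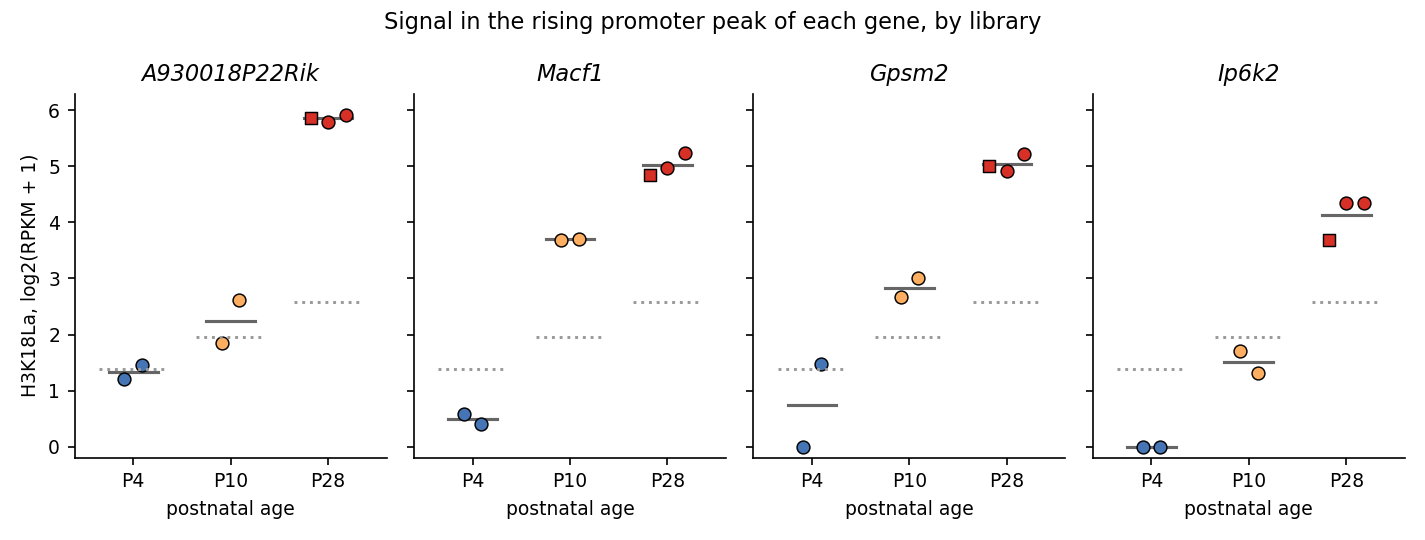
Signal in the rising promoter peak of each gene on the log2(RPKM + 1) scale at P4, P10 and P28. Each point is a library (squares, batch 2), grey bars are means of libraries, and dotted lines give the median promoter peak of protein-coding genes at that age. A930018P22Rik, at 1.32 and 1.73 RPKM, started near the dotted line at P4, Ip6k2 started at 0, and Macf1 was the highest of the 4 at P10.

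The 4 rising peaks differed in how far they had moved by P10. On the log2 scale the P10 libraries of Macf1 had covered 70.5% and 71.0% of the way between the means of P4 and P28. Those of Gpsm2 had covered 44.8% and 52.5%, those of Ip6k2 41.3% and 31.7%, and those of A930018P22Rik 11.6% and 28.4%. These positions depend on the log scale. In RPKM the mean at P10 was 37.8% of that at P28 for Macf1, 19.2% for Gpsm2, 11.1% for Ip6k2 and 6.79% for A930018P22Rik, with the same order of the genes. The log2 level of Macf1 minus that of A930018P22Rik was 1.83 and 1.09 in the P10 libraries, but -0.63 and -1.04 at P4 and -1.03, -0.82 and -0.68 at P28, so their order at P10 was the opposite of that at P4 and P28. The P10 reads behind these values were 2 and 9 for A930018P22Rik, 12 and 28 for Macf1, 2 and 6 for Gpsm2 and 2 and 3 for Ip6k2. No test was made of these positions, since the P4 and P28 values chose the members.

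Promoter peaks of other protein-coding genes with the most similar course over the 7 libraries, by Euclidean distance on the log2 scale, differed between the members. Closest to Macf1 was Alox5ap, the activating protein of 5-lipoxygenase, at a distance of 1.02, followed by Guca1b, a guanylate cyclase activator of photoreceptors, at 1.16 and Ppp3cc at 1.17. Ip6k2 was nearest to Rgs20, a regulator of G protein signalling, at 0.98, then to Zfp366 at 1.03 and Wdr59 at 1.14. Gpsm2 was nearest to Got1, an aspartate aminotransferase, and Ggt7 at 1.16 each, with Ankrd39 at 1.32. For A930018P22Rik the nearest was Ggt7 at 1.79, followed by Gpsm2 itself at 2.07 and Traf3ip3 at 2.16. These distances describe likeness of level and course across 7 libraries.

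Within 50 kb, the rising peak held most of the reads at 3 of the 4 loci at P28. Its share of all reads in peaks of the window was 58.0% to 62.8% in the P28 libraries for A930018P22Rik, 54.6% to 58.3% for Macf1 and 51.7% to 57.1% for Gpsm2. Ip6k2 differed, with 30.8% to 36.3%. At P4 the same windows held 4 to 18 reads in a library in all their peaks, so that shares at that age have little precision. Of the 29 reads at P4 in the window of A930018P22Rik 27.6% were in the rising peak, and of the 24 in that of Ip6k2 none were.

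**Figure D2:**
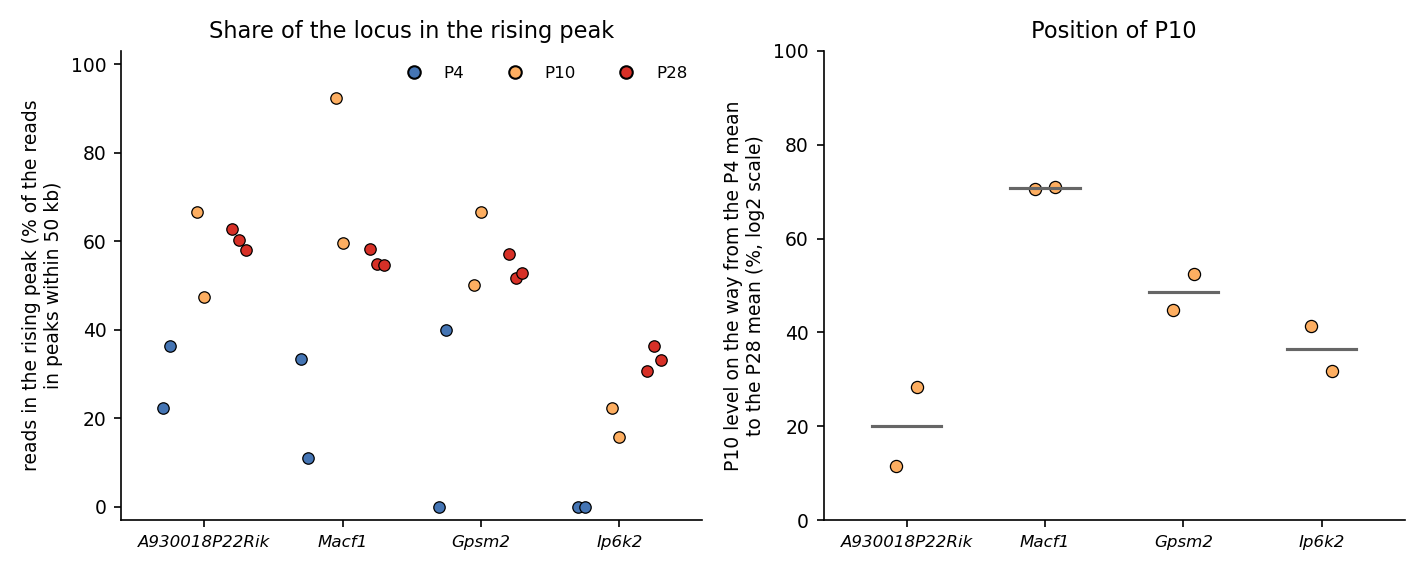
Left, reads in the rising peak as a percentage of all reads in peaks within 50 kb, by library. Right, the level of each P10 library as a percentage of the way between the means of P4 and P28 on the log2 scale, with grey bars for the level of the mean. The P28 points of Ip6k2, at 30.8% to 36.3%, lie below those of the other 3 genes, and Macf1 is furthest along at P10.

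Of the 29 other peaks of the 4 genes, 16 were called higher at P28 than at P4 and 0 lower, next to 18.9% of all peaks called higher and 27.4% of the 45409 peaks that lie within 50 kb of a promoter peak of a protein-coding gene. Their median change was 1.95 on the log2 scale, against 0.68 over all peaks, and all 29 changes were above 0 on the deposited scale (27 of 29 after scaling to the reads in peaks). In 28 of 29 every P28 library was above both P4 libraries, as was the case for 50.6% of all peaks. By gene, 2 of 2 were called in A930018P22Rik, 9 of 21 in Macf1, 2 of 3 in Gpsm2 and 3 of 3 in Ip6k2. In 25 of the 29, each P4 library had 3 reads or fewer. Peaks found at each age were merged, so a peak with no read at P4 can be in the set only through an older age. A rise at such a peak was fixed by that entry, and its call is no independent support for a gain. Peaks with few P4 reads may have entered likewise, as may those behind the shares over all peaks. With voom on the reads recovered from the RPKM values, 22 of 29 were called, against 30.2% of all peaks, and with scaling to the reads in peaks 12 of 29 were called, against 7.17%. The count was 4 of 29 without P4 replicate 1 (5.21% of all peaks in the same fit) or without P4 replicate 2 (5.86%). It was 9 without P28 replicate 2 (8.32%), 8 without P28 replicate 3 (8.45%), 25 without either P10 library (32.1% in each fit) and 11 within batch 1 (11.5%).

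Between P4 and P10, 3 of the 29 other peaks were called higher, next to 11.4% of all peaks, and voom called 2 against 14.5%. Called were an Ip6k2 intron peak, the Macf1 promoter peak nearest the 5′ end and a Macf1 intron peak, which are described with their genes. Leaving out a library gave 0 without P4 replicate 1 (2.59% of all peaks in the same fit), P4 replicate 2 (2.94%) or P28 replicate 2 (5.06%), and 1 without P28 replicate 1 (7.08%) or P28 replicate 3 (6.33%). Between P10 and P28, limma called 0 of 29, next to 0.00185% of all peaks, although 21 had an unadjusted p under 0.05 (32.5% of all peaks) and voom called 7 higher, next to 2.17% of all peaks. The near absence of calls over all peaks depended on the fit. At an adjusted p under 0.05, 10942 of all peaks were higher and 3523 lower at P28 than at P10. Calls over all peaks also became more frequent when either P10 library was left out.

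By RPKM, which scales to peak length, the rising promoter of Ip6k2 was not the strongest peak of its gene. A peak in intron 1 (chr9:108791784-108792212), 2.61 kb upstream of the rising peak, had no read at P4, 4.21 and 1.84 RPKM at P10 and 17.1, 24.6 and 30.6 RPKM at P28. Its RPKM was above that of the rising peak in each P10 and P28 library, at P10 on 2 pooled reads against 5 in the wider rising peak. In pooled P28 reads the intron peak held fewer, 276 against 755 in the rising peak. Its change from P4 to P28 was 4.61 (SE 0.39, limma adjusted p = 1.2e-04), and the P28 signal was at least 13.8-fold higher with a floor of 3 reads over both P4 libraries, or 11.1-fold at the lower limit of the exact 95% interval. Its change from P4 to P10 was 1.94 (limma adjusted p = 0.0072), on 1 read in each P10 library. That P4 to P10 call was not made by voom or after scaling to the reads in peaks. It was also lost without P4 replicate 1, P4 replicate 2 or P28 replicate 2. The promoter peak at the 5′ start of the gene (chr9:108782766-108784095) had 0.68 and 0.90 RPKM at P4, 2.71 and 3.56 RPKM at P10, and 8.48, 13.9 and 13.5 RPKM at P28. It changed by 2.83 (SE 0.35, limma adjusted p = 3.9e-04), with no overlap between ages. An intergenic peak upstream of the gene, 17.4 kb from the rising peak, had no read at P4 or P10 and 2.54, 3.20 and 3.96 RPKM at P28 (change 2.07, SE 0.33, limma adjusted p = 0.0012). Of the fits that tested it, those without P4 replicate 1 or P4 replicate 2 did not call it. With no read at P4 or P10 it can be in the merged set only through P28, so its rise was fixed by that entry. A small nucleolar RNA gene of 147 bases, Gm23034, lies inside the rising peak on the minus strand, and reads of the peak cannot be divided between it and Ip6k2.

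Gpsm2 carried the mark at its 5′ start as well as at the internal one. The promoter peak at the 5′ start (chr3:108721997-108722821) had 1.10 and 0.72 RPKM at P4, 2.19 and 0.96 RPKM at P10 and 10.5, 11.8 and 14.7 RPKM at P28. The P28 libraries did not overlap those of the younger ages, and the change from P4 to P28 was 2.80 (SE 0.37, limma adjusted p = 5.2e-04), a call lost without P4 replicate 2. In each P28 library the internal, rising promoter was 2.96, 2.46 and 2.48 times as high as this one. A peak 1.85 kb from the rising peak (chr3:108709073-108709371) lay on exon 1 of the antisense RNA gene Gm27244 (ENSMUSG00000098800). It had no read at P4, 6.04 and 0 RPKM at P10 (1 read and none), and 14.0, 16.03 and 15.6 RPKM at P28, a change of 4.02 (SE 0.67, limma adjusted p = 0.0015). That call was lost without either P4 library, P28 replicate 1 or P28 replicate 3. Gm27244 spans chr3:108708908-108712653 on the plus strand and overlaps all 676 bases of the rising peak, so that the mark there lies over both genes. An intron peak 1.04 kb on the other side had 2.30 and 3.02 RPKM at P4, 0 and 3.99 RPKM at P10 and 7.31, 9.80 and 13.1 RPKM at P28, which did not pass (change 1.57, SE 0.60, limma adjusted p = 0.057).

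The peaks of Macf1 were spread over much of the gene. By mean signal at P28, the rising peak and 2 peaks close to it were the highest of the gene. A promoter peak 6.45 kb upstream (chr4:123572500-123573319) had 1.11 and 0.73 RPKM at P4, 2.20 and 4.81 RPKM at P10 and 14.7, 18.8 and 23.6 RPKM at P28 (change 3.37, SE 0.37, limma adjusted p = 2.4e-04). The intron peak between them (chr4:123571220-123572250) had 0.44 and 0.58 RPKM at P4, 0 and 3.82 RPKM at P10 and 12.5, 11.0 and 11.4 RPKM at P28 (change 3.06, SE 0.58, limma adjusted p = 0.0028). The call of this intron peak was lost with scaling to the reads in peaks and when any P4 or P28 library was left out. Both were below the rising peak in every P10 and P28 library. A promoter peak 97.2 kb upstream of the rising peak (chr4:123663230-123665787) took another course, with 0.89 and 1.17 RPKM at P4, 6.35 and 8.94 RPKM at P10 and 6.67, 8.53 and 8.64 RPKM at P28. Its P10 and P28 libraries overlapped, and it was called both from P4 to P10 (change 2.08, limma adjusted p = 0.0027) and from P4 to P28 (change 2.14, SE 0.33, limma adjusted p = 0.0010). Neither call was made after scaling to the reads in peaks or without P4 replicate 1. The call from P4 to P10 was also lost without P4 replicate 2 or P28 replicate 2.

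The most downstream promoter peak of Macf1 (chr4:123411203-123412785) had 2.30 and 3.02 RPKM at P4, 3.42 and 2.49 RPKM at P10 and 2.82, 3.73 and 3.60 RPKM at P28. These ranges overlap, the change was 0.26 (SE 0.37, limma adjusted p = 0.58), and after scaling to the reads in peaks it was -0.96. The remaining Macf1 promoter peak (chr4:123526799-123527859) changed by 1.06 and did not pass. Farther from the rising peak, 5 intron peaks were called, with changes of 3.03, 2.85, 2.06, 1.84 and 1.58, and a peak on exon 36 with 2.78. Of the 9 Macf1 peaks called in all, 8 lost the call without P4 replicate 1, 7 without P4 replicate 2, 3, 5 and 5 without P28 replicate 1, 2 and 3, and 3 with scaling to the reads in peaks. The other Macf1 peaks outside promoters did not pass, with changes of 0.94 to 1.95. The peak with 2.06 (chr4:123647648-123648216) had no read at P4, 3.17 and 4.16 RPKM at P10 and 2.77, 2.48 and 4.55 RPKM at P28, so it too was at its P28 level by P10 (P4 to P10 change 2.21, limma adjusted p = 0.0064, from 1 and 3 reads). Its P4 to P28 call was lost when any P4 or P28 library was left out. Without P4 replicate 1, P4 replicate 2 or P28 replicate 2 its P4 to P10 call was lost too. The 5′ start of Macf1 had no peak over it, and the nearest, just upstream of it, had 0.38 and 0.99 RPKM at P4, 1.498 and 4.25 RPKM at P10 and 3.70, 4.44 and 5.09 RPKM at P28 (change 1.70, limma adjusted p = 0.014).

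A930018P22Rik had 2 more peaks, both intergenic and downstream. The nearer (chr2:104129227-104130235) lay 5.45 kb from the rising peak, with 0.45 and 0.59 RPKM at P4, 0 and 0.78 RPKM at P10 and 6.76, 7.07 and 9.24 RPKM at P28 (change 2.50, SE 0.44, limma adjusted p = 0.0019). The farther (chr2:104134193-104135520), 10.4 kb from it, had 0.68 and 0.45 RPKM at P4, 1.36 and 1.78 RPKM at P10 and 5.14, 5.97 and 5.98 RPKM at P28 (change 2.10, SE 0.39, limma adjusted p = 0.0024). At P28 the rising peak was 6.41 to 8.50 times as high as the nearer and 9.17 to 11.2 times as high as the farther. Its neighbours were thus well below it, which was not so at Ip6k2. Neither downstream peak was called after scaling to the reads in peaks or when any P4 or P28 library was left out.

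**Figure D3:**
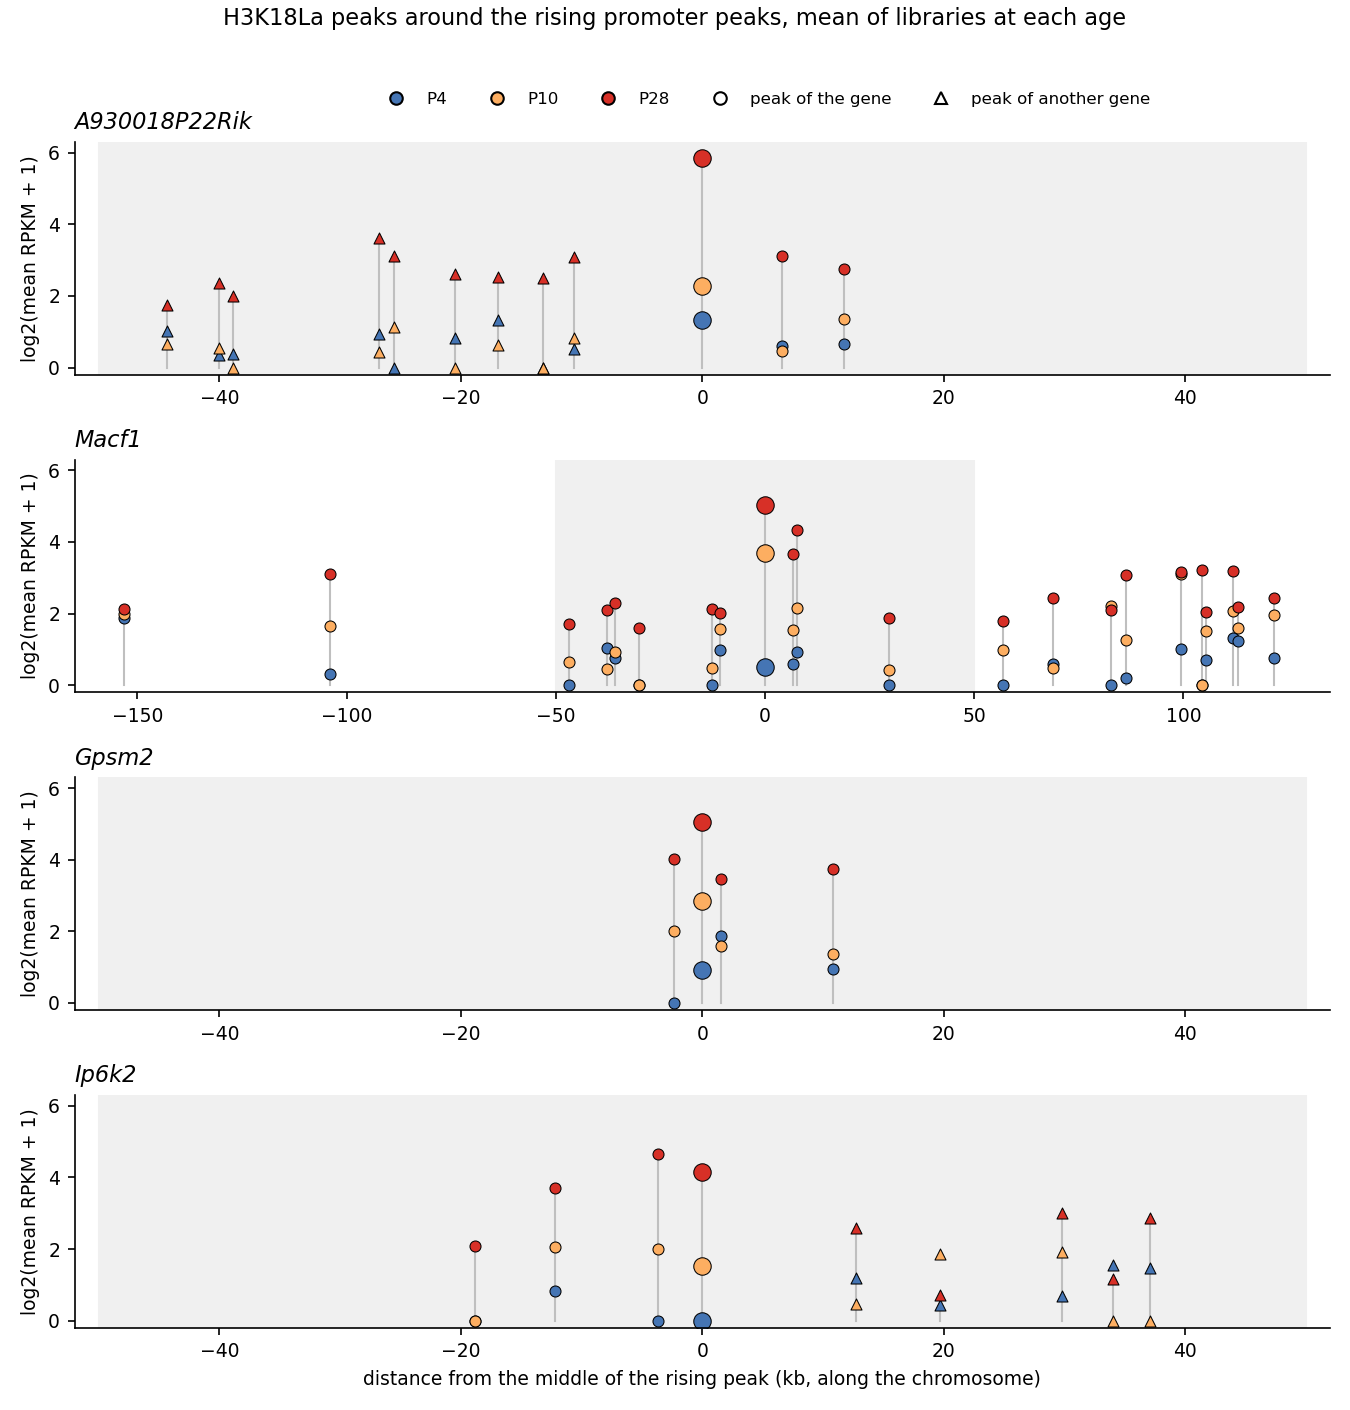
Mean signal of each peak at P4, P10 and P28, as log2 of mean RPKM plus 1, against the distance from the middle of the rising peak in kb along the chromosome. Circles are peaks of the named gene (large, the rising peak), triangles are peaks of other genes, and the shaded span reaches 50 kb to each side. At A930018P22Rik the rising peak stands above all others at P28, while at Ip6k2 the intron peak just to its left is higher.

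Peaks assigned to other genes lay within 50 kb at 2 of the 4 loci, 9 next to A930018P22Rik and 5 next to Ip6k2. The peak on exon 1 of Gm27244 was assigned to Gpsm2 by the authors and is counted with that gene. Between P4 and P28, 7 of the 14 peaks of other genes were called higher and 0 lower, next to 27.4% of the peaks within 50 kb of a promoter peak, with a median change of 1.67. In 13 of the 14, each P4 library had 3 reads or fewer, and the limit given for the other peaks of the members holds here too. After scaling to the reads in peaks 3 of 14 were called, next to 11.0% of the peaks within 50 kb of a promoter peak, and voom called 9 of 14, next to 42.3%. The count was 0 without P4 replicate 1 or P4 replicate 2, where 7.93% and 8.93% of the peaks within 50 kb of a promoter peak were called higher. It was 3 within batch 1, that is without P28 replicate 1 (16.9%), 3 without P28 replicate 2 (12.4%), 1 without P28 replicate 3 (12.5%), and 11 without P10 replicate 1 (44.9%) or P10 replicate 2 (45.1%). Between P4 and P10 limma called 0 of 14, next to 14.7% of peaks within 50 kb of a promoter peak, with 4 at an unadjusted p under 0.05 (43.6% of those peaks) and 0 called by voom, next to 18.8%. Between P10 and P28 limma again called 0 (0.0022% of those peaks), with 12 at an unadjusted p under 0.05 (36.5%), and voom called 5 higher (3.21%).

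Next to A930018P22Rik the 9 peaks, 6 of which passed, belonged to Cd59a and Cd59b, neighbouring genes for surface inhibitors of complement. The Cd59a promoter peak (chr2:104095740-104096891), 25.5 kb away, had 0.79 and 1.04 RPKM at P4, 0 and 0.68 RPKM at P10 and 10.02, 9.87 and 13.6 RPKM at P28. The P10 libraries were not above those of P4, and the change from P4 to P28 was 2.66 (SE 0.41, limma adjusted p = 9.6e-04). That call was lost with a pseudocount of 0.1, without either P4 library and without P28 replicate 3. The 5 other peaks of Cd59a were in introns and 3 of them passed, with changes of 3.101, 2.62 and 2.46. Of the 3 Cd59b peaks, those in intron 3 and exon 4 passed (changes of 2.06 and 1.63). After scaling to the reads in peaks 3 of the 9 were called, and both Cd59b peaks that had passed and the Cd59a intron peak with 2.62 were not. Without P4 replicate 1 or without P4 replicate 2 none of the 9 was called. Cd59a and Cd59b arose by duplication, and reads that map to both could have been assigned to either. The fourth gene that reaches into this window, D430041D05Rik, starts 287.2 kb away and had no peak in it.

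Next to Ip6k2, 1 of 5 peaks of other genes passed. It covered the start of Gm37714 (chr9:108824646-108826278), a transcript of unknown kind just before Celsr3, with 0.83 and 0.37 RPKM at P4, 2.21 and 3.38 RPKM at P10 and 6.59, 5.87 and 8.78 RPKM at P28 (change 2.34, SE 0.39, limma adjusted p = 0.0014). It was not called after scaling to the reads in peaks or without P4 replicate 1, P4 replicate 2 or P28 replicate 3. The promoter peak of Nckipsd (chr9:108807908-108808908), an adaptor of the actin cytoskeleton whose gene follows Ip6k2, had 1.36 and 1.19 RPKM at P4, 0 and 0.79 RPKM at P10 and 4.46, 4.85 and 5.87 RPKM at P28. Its change of 1.41 (SE 0.44, limma adjusted p = 0.028) did not pass. A peak on exon 10 of Nckipsd and a peak on exon 1 of Celsr3, a cadherin of planar polarity, stayed below 5 RPKM in every library, with changes of 0.31 and -0.42 that did not pass. A second Celsr3 peak had a change of 1.42 that did not pass either (limma adjusted p = 0.018).

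At Gpsm2 the window also held the start of Aknad1, 27.8 kb away, with no peak near it, and at Macf1 no other gene reached into the window. Over all 4 windows, called peaks were 2 of the 3 that lay within 5 kb of a rising peak, 9 of the 15 between 5 and 20 kb and 7 of the 13 between 20 and 50 kb, with median changes of 4.02, 2.10 and 1.66. The 3 nearest peaks were of Gpsm2 and Ip6k2 only, each P4 library had 3 reads or fewer in them, and a trend with distance was not tested. The 12 Macf1 peaks beyond 50 kb had a median change of 1.88, and 5 were called. These counts stand next to 18.9% of all peaks and 27.4% of the peaks within 50 kb of a promoter peak. After scaling to the reads in peaks they were 2, 5, 5 and 3, with medians of 3.69, 1.67, 1.36 and 1.05, next to 7.17% and 11.0%. Of the 23 peaks called on the deposited scale, 14 lost the call without P28 replicate 3, and most lost it without either P4 library.

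**Figure D4:**
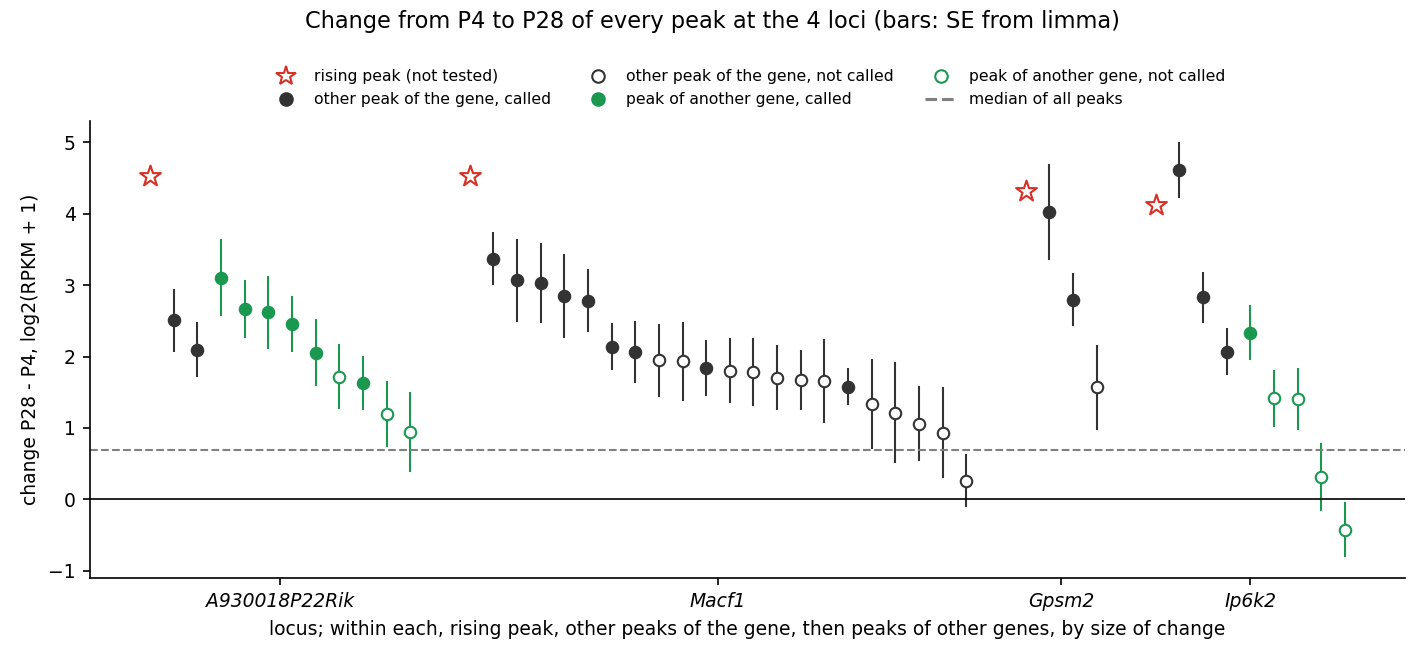
Change from P4 to P28 on the log2(RPKM + 1) scale of each of the 47 peaks at the 4 loci. Stars are rising peaks, which were not tested, circles are other peaks of the genes (dark) or of other genes (green), filled where called, and bars are SE from limma. At Ip6k2 the intron peak, at 4.61, lies above the star, and 2 green points lie below the dashed line, the median of all peaks.

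Promoter peaks of relatives and partners of Macf1, Gpsm2 and Ip6k2 were compared between P4 and P28, with the peak nearest the start site for each gene. Of 42 with a promoter peak, 22 were called higher and 0 lower, next to 33.4% of the 9956 protein-coding genes, and the median change was 1.65, against 1.35 over those genes. In 11 of the 42, each P4 library had 3 reads or fewer, with the limit given for the other peaks of the members. Scaling to the reads in peaks left 6 of 42 called higher, next to 7.29%, and 1 was then lower, next to 3.27%. The count was 9 without P4 replicate 1 (9.33% of the protein-coding genes in the same fit), 10 without P4 replicate 2 (10.7%), 12 without P28 replicate 2 (13.0%) and 11 without P28 replicate 3 (12.8%).

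Among kinases and phosphatases of inositol phosphates, 8 of 16 with a promoter peak (18 listed) were called higher, against 33.4% of protein-coding genes. After scaling to the reads in peaks 2 were called, against 7.29%, and the median fell from 1.73 to 0.54, with 11 of 16 above 0. Ppip5k1, which adds a further phosphate to inositol pyrophosphates, went from 0 RPKM in both P4 libraries to 10.7 ± 0.59 RPKM at P28 (SD, n = 3), a change of 3.55. Ip6k1, the closest relative of Ip6k2, went from 0.92 ± 0.18 RPKM (SD, n = 2) to 10.3 ± 1.88 RPKM (SD, n = 3), a change of 2.55. Impa1, an inositol monophosphatase, and Ipmk, a multikinase that acts upstream of Ip6k2, changed by 2.54 and 2.25. Both lost the call with that scaling, and Impa1 also without either P4 library or P28 replicate 3. Ppip5k1 lost it without either P4 library. Ip6k3 changed by 2.66 and did not pass (SE 0.73, limma adjusted p = 0.016).

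Of the spectraplakins, plakins and microtubule end proteins, 7 of 12 with a promoter peak (16 listed) were called higher, against the same 33.4%. Scaling to the reads in peaks left 1 called, against 7.29%, and the median went from 1.65 to 0.44, with 7 of 12 above 0. The largest change was at Mapre3, an end-binding protein that sits on growing microtubules, from 1.22 ± 0.47 RPKM (SD, n = 2) to 21.8 ± 2.39 RPKM (SD, n = 3), which is 3.38 on the log2 scale. Clip1, a plus-end linker, and the minus-end proteins Camsap2 and Camsap1 changed by 2.37, 2.31 and 2.04. All 3 lost the call with that scaling, Clip1 also without P4 replicate 1, P28 replicate 2 or P28 replicate 3, and Camsap2 also without P4 replicate 2. Dst, the other spectraplakin, changed by 0.62, and Plec, a plakin of intermediate filaments, by 0.64, and neither passed.

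Of the LGN complex and inhibitory G proteins, 7 of 14 with a promoter peak (18 listed) were called higher, again against 33.4%. With that scaling 3 were called higher, against 7.29%, and the median was 0.31 in place of 1.59, with 9 of 14 above 0. Dlg1, a scaffold of cell polarity, went from 0.58 ± 0.82 RPKM (SD, n = 2) to 13.8 ± 2.38 RPKM (SD, n = 3), a change of 3.32. Gnat1, the transducin alpha subunit of rods and also among the rod markers above, changed by 3.21. Gpsm3 and Gpsm1, which like Gpsm2 carry G protein regulatory motifs, changed by 2.90 and 2.65, and with that scaling Gpsm1 was no longer called. The genes of the inhibitory alpha subunits Gnai1, Gnai2 and Gnai3 changed by -0.71, 0.29 and 0.66 and did not pass, and neither did Numa1, the spindle partner of LGN (1.32, limma adjusted p = 0.014).

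**Figure D5:**
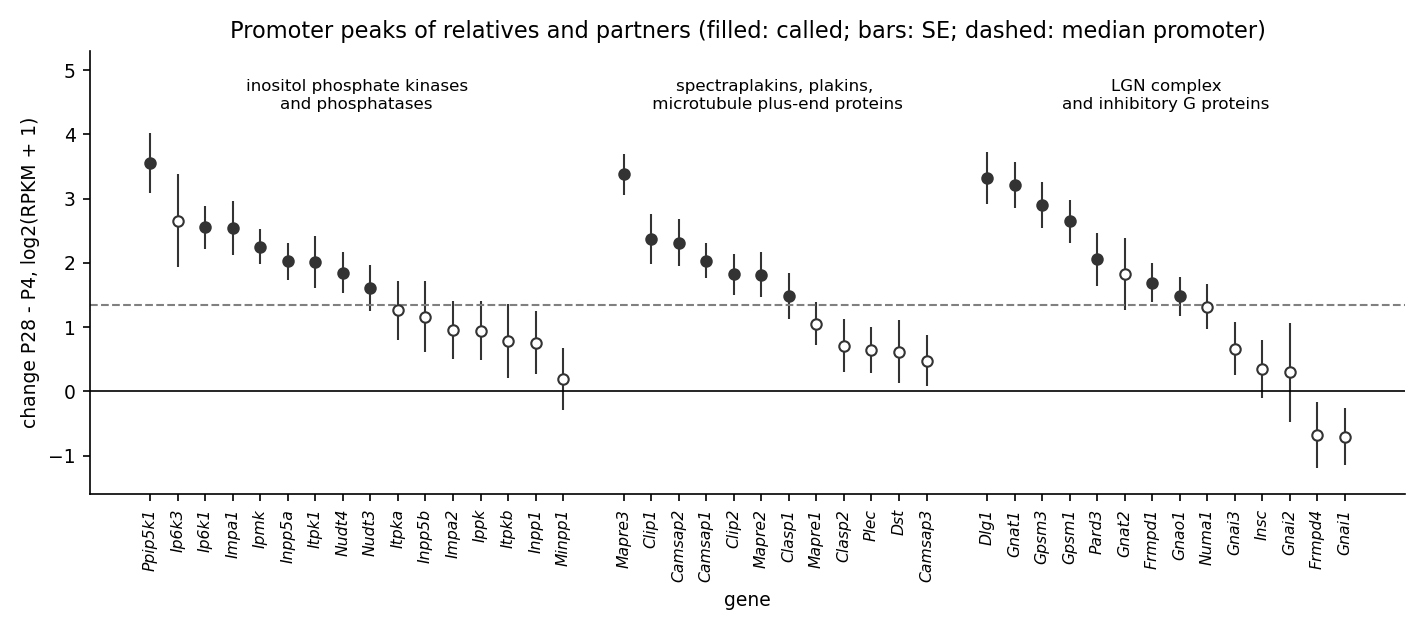
Change from P4 to P28 on the log2(RPKM + 1) scale at the promoter peak of each relative or partner, by list. Filled circles were called, open circles were not, bars are SE from limma, and the dashed line is the median over 9956 protein-coding genes (1.35). Ppip5k1, Mapre3 and Dlg1 lead the 3 lists.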

How the data were processed

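The 7 H3K18La CUT&Tag libraries of retinas at P4, P10 and P28 were analysed. Per the study's methods, reads were mapped to GRCm38 with nf-core/cutandrun. MACS peaks shared by 2 or more biological replicates of an age were kept, and those of all ages were merged. They were annotated with ChIPseeker on Ensembl, a promoter being -1000 to 500 bases from a start site. Reads were counted with csaw, normalized over large windows. The study describes more replicates than the 2 libraries each analysed here at P4 and P10. The authors deposited RPKM per peak and library. Their tables of fold changes and p-values hold their own comparisons and were not used. RPKM times width was a whole multiple of 1 unit in 100% of values (within 0.01 reads), which gave reads per peak and the normalized library size.

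log2(RPKM + 1) was fitted with limma 3.58.1 in R 4.3.3 over all 108253 peaks and 7 libraries, with age as the group, after a test on simulated data. A Benjamini-Hochberg adjusted p below 0.01 made a call. Intervals and the floor of 3 reads cover counting error only, since there were no molecular identifiers. The members, lists, motifs and tests were chosen with earlier results of these data known. The text names the peaks of the genes that results turn on, genes with a peak within 50 kb, promoter peaks next in rank, the 3 promoter peaks nearest in course to each member, and the called list genes with the largest change (at most 4 in each list). List genes named beyond these were chosen after their values were seen. Alternatives were the pseudocount, a filter on low signal, scaling, centring, voom, the replicate number as a block, the threshold, and leaving out each library.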

Additional observations from a re-analysis of the deposited data

How the results depend on the processing

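The edgeR and DESeq2 alternatives that were planned on recovered reads were not run, and voom on those reads was added after seeing the data. For the other peaks of the 4 genes, the count called higher from P4 to P28 (16 of 29) became 10 with the replicate block (11.4% of all peaks in that fit) and ranged from 4 to 25 when a library was left out. From P4 to P10 the count (3 of 29) became 1 with a pseudocount of 5 (9.75% of all peaks), 1 with scaling to the reads in peaks (4.35%), 1 with the replicate block (9.56%) and 5 at an adjusted p under 0.05 (21.4%), and ranged from 0 to 4 with a library left out. For peaks of other genes within 50 kb, the count from P4 to P28 (7 of 14) became 2 with a pseudocount of 0.1 (18.5% of peaks within 50 kb of a promoter peak), 4 among peaks at or above the median signal (7 of 14 tested, 43.3%), 3 with scaling to the reads in peaks (11.0%) and 3 with the replicate block (16.6%), and ranged from 0 to 11 with a library left out. From P4 to P10 the count called higher (0 of 14) became 1 at an adjusted p under 0.05 (26.9% of peaks within 50 kb of a promoter peak). At that threshold 2, both of Celsr3, were lower (7.42%). There were also 2 lower with scaling to the reads in peaks (9.04%), 1 with median centring (4.78%) and 1 with a pseudocount of 0.1 (2.67%). The count called higher ranged from 0 to 1 with a library left out. For relatives and partners, the count (22 of 42) became 6 with scaling to the reads in peaks, 15 with the replicate block (18.6% of protein-coding genes), and ranged from 9 to 26 with a library left out. Over all peaks the calls from P4 to P28 also fell, from 25041 to 7772 without P4 replicate 1 and 8297 without P4 replicate 2, where the lone P4 library is assumed to vary like the other ages. Replicate numbers did not pair the libraries, since deviations of libraries with the same number correlated at -0.0010 to 0.047.

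The gains of the rising peaks were recomputed with the pseudocounts, both scalings and each P4 or P28 library left out. They kept their direction in these, but their size depended on the pseudocount: with 0.1 they were 5.15 for A930018P22Rik, 5.96 for Macf1, 6.22 for Gpsm2 and 7.37 for Ip6k2, and with 5 they were 3.25, 2.75, 2.67 and 2.11, so that Ip6k2 came first with the low pseudocount and last with the high one. With scaling to the reads in peaks they were 3.35, 3.72, 3.56 and 3.79. Leaving out a library gave 4.41 to 4.65, 4.42 to 4.61, 3.58 to 5.05 and 4.01 to 4.35. Among single peaks, the most downstream Macf1 promoter peak went to -0.96 with scaling to the reads in peaks and -0.26 with median centring, the Macf1 intron peak 112.0 kb from the rising peak to -0.13 with that scaling, and the exon 10 peak of Nckipsd to -0.11 and -0.21, and from -0.074 (without P4 replicate 1) to 0.702 (without P4 replicate 2) with a library left out. None of these passed in the first place. Of the 23 tested peaks at the 4 loci that were called from P4 to P28, 19 lost the call without P4 replicate 1 and 19 without P4 replicate 2, 10, 11 and 14 without P28 replicate 1, 2 and 3, 10 with a pseudocount of 0.1, 10 with the replicate block, 9 with scaling to the reads in peaks, 5 with median centring and 1 with a pseudocount of 5. Only 3 kept it wherever a value was given: the intron 1 and 5′ promoter peaks of Ip6k2 and the Macf1 promoter peak next to the rising peak. Of the 12 relatives and partners named, which are the 4 with the largest called changes in each list, 6 lost the call with scaling to the reads in peaks, 3 without P4 replicate 1, 3 without P4 replicate 2, 1 without P28 replicate 2 and 2 without P28 replicate 3, and 5 (Ip6k1, Mapre3, Dlg1, Gnat1 and Gpsm3) kept it wherever a value was given. The cause of these shifts was not tested. At P4, 3 reads in a peak of median width correspond to 1.80 and 2.36 RPKM.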
